A study of Mus musculus with 6 samples.

Results

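The genes described here are 6 subunits of the ion channels that set the electrical excitability of the muscle fibre membrane (the sarcolemma): Scn4a, Clcn1, Kcnj2, Kcnj11, Abcc9 and Kcna7. They were chosen by symbol, for their known function and with earlier results of these data known, from the 34714 gene symbols of one count table. All 6 were among the 15788 genes that passed the filter on low counts. RNA was sequenced from whole gastrocnemius (Gas) muscle of untreated male mice aged 8 weeks, with 3 wild-type mice (WT, age-matched C57BL/6) and 3 mice carrying a global knockout of miR-92b (miR-92b-/-, strain C57BL/6JGpt-Mir-92bem22Cd549/Gpt, called M92KO), and 1 library per mouse. The deletion was not limited to muscle fibres, and the sources used here do not say whether the WT mice were littermates. The question addressed was how the loss of miR-92b alters the muscle transcriptome. The level of miR-92b itself was not analysed here.

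A muscle action potential begins when voltage-gated sodium channels open, and it ends as these channels inactivate and as potassium and chloride currents return the membrane to rest. In skeletal muscle the resting chloride conductance is unusually large and damps repetitive firing. Inward rectifier potassium channels hold the resting potential near the potassium equilibrium, ATP-sensitive potassium (KATP) channels open when the energy supply of the fibre falls, and the sodium pump restores the ion gradients after activity. Inherited defects of SCN4A, CLCN1 and KCNJ2 cause myotonia or periodic paralysis in people.

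A microRNA lowers its targets mainly by pairing its seed, bases 2 to 8, with a 3′-untranslated region (3′-UTR). Both arms of miR-92b lie on the minus strand of chromosome 3 (RefSeq, GRCm38.p6), the 3p arm at chr3:89227126-89227147 and the 5p arm at chr3:89227165-89227188. Their mature sequences are shown because the deletion removes them, with the seed in capitals:
miR-92b-3p: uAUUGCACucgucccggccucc
miR-92b-5p: aGGGACGGgacguggugcaguguu
The matches searched, on the sense strand of the transcript only, were the 8mers GTGCAATA for the 3p arm and CCGTCCCA for the 5p arm, the 7mers made of the first or last 7 letters of each, and the 6mer cores made of its letters 2 to 7.

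None of these motifs occurred in the annotated 3′-UTRs of the members (GENCODE M21, GRCm38). Such a region was annotated for 5 members, and 0 of these 5 held a 6mer, 7mer or 8mer of either arm. Among the 13684 genes tested that had an annotated 3′-UTR, 19.2% held a 7mer or 8mer of at least one arm, and 33.8% held at least a 6mer. The 3′-UTRs of Scn4a, Clcn1, Kcnj2 and Kcnj11 were 1072, 478, 3751 and 1629 bases long (1602 bases for Kcnj11 up to its RefSeq end), and the longest of Abcc9 was 2680 bases, whereas the median of the longest 3′-UTR over all these genes was 1187 bases. The GENCODE model of Kcna7 stops at its stop codon. The RefSeq gene ends 1619 bases further downstream, and that stretch was not analysed here. RefSeq also ends Scn4a 1047 bases beyond its GENCODE end, and that stretch was not searched either, so the result for Scn4a covers its GENCODE 3′-UTR only.

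Outside the 3′-UTR, 4 of the 6 members held a match of at least 6 bases, and 2 of the 6, Abcc9 and Kcna7, held a 7mer. Over whole protein-coding transcripts, 3′-UTR included, 61.5% of 13748 genes held at least a 6mer and 36.3% a 7mer or 8mer. The counts of the members are the same over whole transcripts, because their annotated 3′-UTRs held no match. The share of all genes with a match outside the 3′-UTR was not computed. The search over whole transcripts was added after the 3′-UTRs had been read. The windows around the matches of those 2 genes are given with the match in capitals:
Abcc9, 3p arm, coding sequence: agcacaccggaGTGCAATcaaaaccaata
Abcc9, 5p arm, 5′-UTR: ggaaaacttgtCGTCCCAtggagtgcgtg
Kcna7, 3p arm, 5′-UTR, first match: agcaagagtacTGCAATActgagccagtc
Kcna7, 3p arm, 5′-UTR, second match: tgccatacgccTGCAATcccagcatttg
The coding match of Abcc9 spans a splice junction and was present in 3 of its 6 protein-coding transcripts. Its 5′-UTR match lies at chr6:142702229-142702235 and was present in 4 transcripts. The matches of Kcna7 lie at chr7:45405770-45405776 and chr7:45406114-45406119. Scn4a and Kcnj2 each held one 6mer of the 3p arm in the coding sequence, and a 6mer of the 5p arm lay in the coding sequence of Scn4a and in the 5′-UTR of Kcnj2. Clcn1 and Kcnj11 held none.

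The 6 libraries held between 33160508 and 48209846 counts, the 3 WT libraries 38246649 to 48209846 and the 3 M92KO libraries 33160508 to 37019640. One library stood apart. The mean chi-square per gene between replicate libraries was 57.4 for M92KO replicate 1 against each of its 2 partners, and between 10.9 and 29.6 for the other pairs within a genotype. Values for the members and related channel genes are therefore also given without M92KO replicate 1 where this changed a call. Levels are given as CPM, counts scaled to a common library size with TMM factors, and a count of 3 corresponded to 0.0629 to 0.0916 CPM. Because whole muscle was sequenced, fewer cells of a type and less RNA per cell cannot be told apart.

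None of the 6 members differed between genotypes at an adjusted p under 0.05 (edgeR quasi-likelihood test, Benjamini-Hochberg over 15788 genes), where 0 of all genes tested (0%) passed. DESeq2 called 322 genes (2.04%) and no member. At an unadjusted p under 0.05, 1 of the 6 members, Kcna7, was higher in M92KO, beside 1955 of all genes tested (12.4%), of which 863 (5.47%) were higher and 1092 (6.92%) lower. Without M92KO replicate 1, 1545 of 16058 genes (9.62%) were higher and 1439 (8.96%) lower by the same threshold. The lowest M92KO library lay above the highest WT library for 1 member, again Kcna7, beside 8.77% of all genes tested. The groups did not overlap in either direction for 18.4% of genes, and M92KO lay below WT in 9.58%. The median log2 fold change of the members was 0.053, and that of all genes tested was -8.1e-05. With 3 mice against 3, an exact two-sided permutation test cannot give a p below 0.1.

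**Figure D1:**
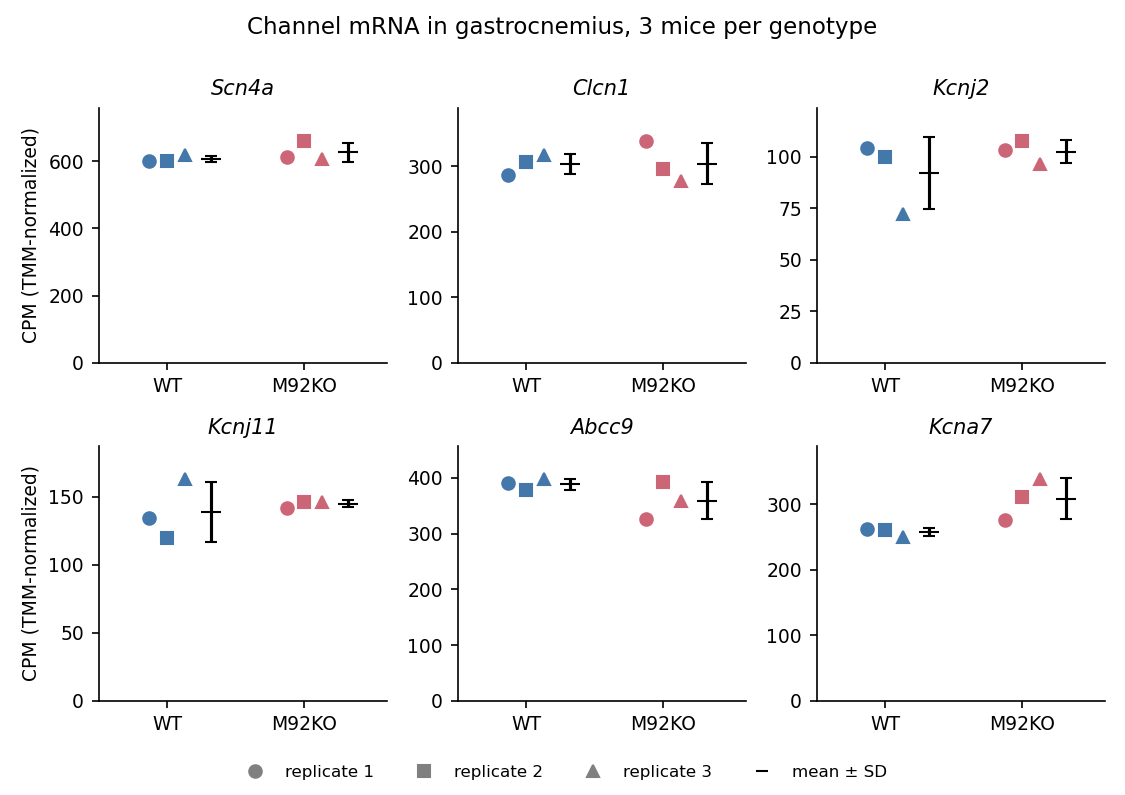
CPM of the 6 members in each library, with WT in blue, M92KO in red, 1 marker shape per replicate number, and bars for the mean ± SD of 3 mice. Kcna7 is the panel in which the M92KO libraries, at 276 to 338 CPM, all lie above the WT libraries, at 251 to 261 CPM.

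Scn4a encodes the pore-forming subunit of the sodium channel of adult skeletal muscle, which carries the upstroke of the action potential (ENSMUSG00000001027, chr11:106318592-106353288, minus strand). Its level was 601, 601 and 618 CPM in the WT libraries and 612, 660 and 607 CPM in the M92KO libraries, from 21262 to 29470 counts. The groups overlapped, with M92KO replicate 2 the highest library. The means were 606 ± 9.70 CPM in WT and 626 ± 29.3 CPM in M92KO (SD, n = 3 each). The log2 fold change was 0.047 (SE 0.069, 95% confidence interval -0.11 to 0.20), with an adjusted p of 0.835 in edgeR. On a linear scale this interval runs from -7.38% to 15.2%, the narrowest of the 6 members.

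Clcn1 encodes the chloride channel that provides most of the resting chloride conductance of the fibre, and its loss causes myotonia (ENSMUSG00000029862, chr6:42286685-42315756, plus strand). It measured 286, 306 and 316 CPM in WT and 338, 295 and 277 CPM in M92KO. The M92KO libraries enclosed the WT libraries, with M92KO replicate 1 the highest of all 6 and M92KO replicate 3 the lowest. The means were the same to 3 digits, 303 ± 15.1 CPM in WT and 303 ± 31.2 CPM in M92KO, and the log2 fold change was 0.0019 (SE 0.088, 95% confidence interval -0.20 to 0.20, adjusted p = 0.995 in edgeR). Of its exons, 445 bases overlap those of Fam131b on the opposite strand. Fam131b had 25 to 59 counts per library beside 9663 to 15084 for Clcn1.

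Kcnj2 encodes the inward rectifier Kir2.1, which stabilises the resting potential and clears potassium from the transverse tubules (ENSMUSG00000041695, chr11:111066164-111076821, plus strand). The WT libraries held 104, 99.6 and 72.1 CPM and the M92KO libraries 103, 107 and 96.6 CPM. WT replicate 3 was the lowest library, and the other 2 WT libraries lay within the M92KO range. The means were 92.0 ± 17.4 and 102 ± 5.52 CPM. The log2 fold change of 0.16 (SE 0.13, 95% confidence interval -0.14 to 0.45) had an adjusted p of 0.690 in edgeR, and without WT replicate 3 it was 0.0049.

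Kcnj11 and Abcc9 encode the parts of the KATP channel of skeletal muscle, Kcnj11 the pore Kir6.2 and Abcc9 the sulphonylurea receptor SUR2 that senses nucleotides. Kcnj11 (ENSMUSG00000096146, chr7:46093953-46100764, minus strand) measured 134, 119.6 and 163 CPM in WT and 142, 146 and 147 CPM in M92KO. The 3 M92KO libraries lay within the WT range. The means were 139 ± 22.0 and 145 ± 2.56 CPM, with a log2 fold change of 0.060 (SE 0.107, 95% confidence interval -0.18 to 0.30, adjusted p = 0.867 in edgeR).

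Abcc9 (ENSMUSG00000030249, chr6:142587862-142702315, minus strand) was the one member with a lower mean in M92KO. It measured 390.4, 377 and 397 CPM in WT and 325, 392 and 358 CPM in M92KO, that is 388 ± 10.1 against 359 ± 33.2 CPM. M92KO replicate 2 lay within the WT range and the other 2 lay below it. The log2 fold change was -0.12 (SE 0.082, 95% confidence interval -0.30 to 0.071, adjusted p = 0.631 in edgeR). Abcc9 shares 158 exonic bases with the antisense gene 5330439B14Rik, which had 0 to 5 counts per library.

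The pore and the receptor of the KATP channel were also compared within each library, on the scale of CPM per kilobase of exon. The ratio of Kcnj11 to Abcc9 was 0.782, 0.722 and 0.933 in WT and 0.993, 0.848 and 0.931 in M92KO. M92KO replicate 1 lay above the WT range and the other two within it. The means were 0.813 ± 0.109 and 0.924 ± 0.0725 (exact two-sided permutation p = 0.3, adjusted p = 0.6 over 8 ratios). Kcnj8, the pore Kir6.1 of vascular KATP channels, measured 38.3 ± 1.75 CPM in WT and 38.7 ± 4.70 CPM in M92KO, and its ratio to Kcnj11 was 0.405 ± 0.0702 and 0.386 ± 0.0531 (exact p = 0.7, adjusted p = 0.7). The 8 ratios computed were chosen after the values had been seen.

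Kcna7 encodes a voltage-gated potassium channel of the shaker family that is prominent in skeletal muscle, and such channels repolarise the membrane (ENSMUSG00000038201, chr7:45405653-45409763, plus strand). It measured 261, 260.3 and 251 CPM in WT and 276, 311 and 338 CPM in M92KO, from 9575 to 12270 counts. Every M92KO library lay above every WT library, and M92KO replicate 1 lay closest to WT. The means were 257 ± 5.96 CPM in WT and 308 ± 31.2 CPM in M92KO. The log2 fold change was 0.26 (SE 0.084, 95% confidence interval 0.067 to 0.45), or 19.7% higher in M92KO with an interval of 4.76% to 36.8%. It had an unadjusted p of 0.0141 and an adjusted p of 0.285 in edgeR, and the exact two-sided permutation test gave 0.1, the smallest p it can give. The call turned on M92KO replicate 1. Without it the log2 fold change was 0.33 (SE 0.055) with an adjusted p of 0.0302 in edgeR, in a fit that called 401 of 16058 genes (2.5%). Without M92KO replicate 3 the log2 fold change was 0.19 (SE 0.084), with an adjusted p of 0.489 in edgeR. DESeq2 on all 6 libraries gave Kcna7 an adjusted p of 0.141.

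**Figure D2:**
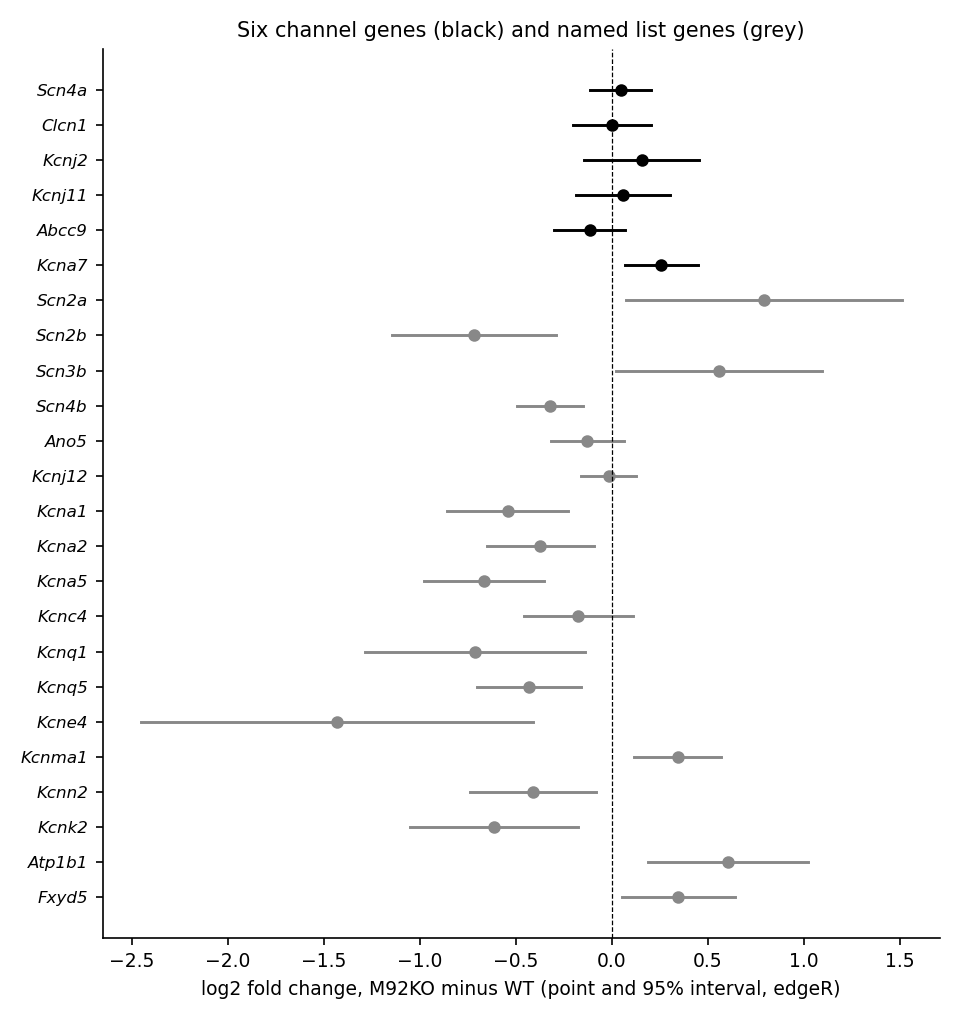
Log2 fold change (M92KO minus WT, edgeR) of each member in black and of other channel and pump genes in grey, as a point with its 95% confidence interval as a bar. The interval of Kcna7, 0.067 to 0.45, lies above 0, and those of the other 5 members contain 0.

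Compared per length, the members fell over a several-fold range of levels within one genotype. In WT the order was Kcna7 (118 ± 2.73 CPM per kilobase of exon), Scn4a (86.1 ± 1.38), Clcn1 (55.8 ± 2.78), Abcc9 (46.4 ± 1.21), Kcnj11 (37.8 ± 5.99) and Kcnj2 (16.9 ± 3.20 CPM per kilobase). The WT libraries of neighbours in this order did not overlap, the closest being Abcc9 at 45.1 to 47.5 and Kcnj11 at 32.5 to 44.3 CPM per kilobase. In M92KO the order of the means was the same, 141 ± 14.3 for Kcna7, 88.9 ± 4.17 for Scn4a, 55.9 ± 5.76 for Clcn1, 42.8 ± 3.97 for Abcc9, 39.4 ± 0.696 for Kcnj11 and 18.8 ± 1.01 CPM per kilobase for Kcnj2, but Abcc9 at 38.9 to 46.8 overlapped Kcnj11 at 38.6 to 39.9. These levels ranked from the 85.1st percentile of all genes tested that had a length (Kcnj2) to the 98.1st (Kcna7).

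The order depended on the gene model at 2 places, the top pair and Abcc9 beside Kcnj11. RefSeq extends Kcna7 by 1619 bases and Scn4a by 1047 bases at the 3′ end and ends Kcnj11 earlier, which removes 425 exonic bases, and all 34714 symbols of the count table occur in the RefSeq gene table. With the exons ended there, the WT level of Kcna7 was 67.7 ± 1.57 and that of Scn4a 75.0 ± 1.20 CPM per kilobase, so that Scn4a stood first in WT, whereas in M92KO Kcna7 at 81.1 ± 8.21 still lay above Scn4a at 77.4 ± 3.63 CPM per kilobase. This length takes the added bases as exonic. The WT level of Kcnj11 was then 42.7 ± 6.77 CPM per kilobase beside 46.4 ± 1.21 for Abcc9. In M92KO the order of this pair turned, with Kcnj11 at 44.5 ± 0.787 and Abcc9 at 42.8 ± 3.97 CPM per kilobase. With the length of the longest transcript in place of all exons, Clcn1 stood at 85.5 ± 4.26 beside Scn4a at 91.9 ± 1.47 CPM per kilobase, and the WT libraries of Abcc9, at 50.3 to 53.0, overlapped those of Kcnj11, at 38.1 to 51.8 CPM per kilobase.

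**Figure D3:**
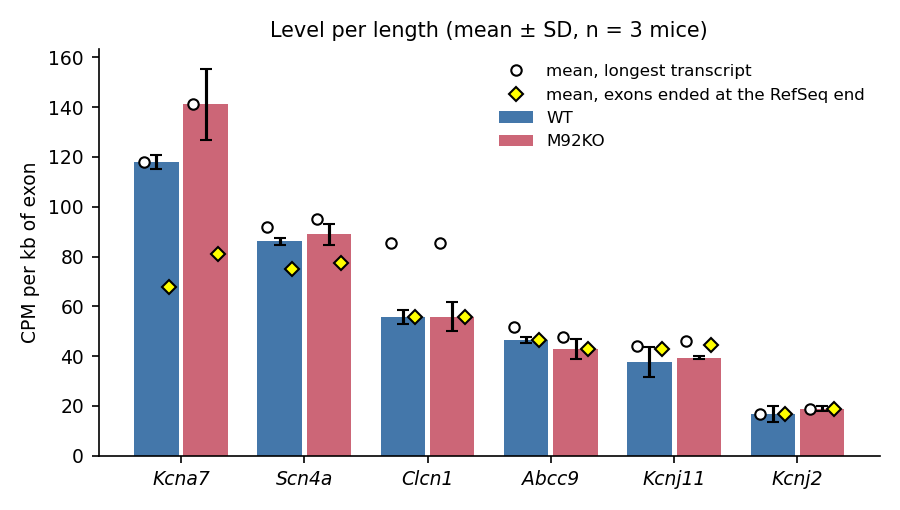
Mean CPM per kilobase of exon of each member as bars, WT in blue and M92KO in red, with the SD of 3 mice. Open circles give the mean with the length of the longest transcript and yellow diamonds that with exons ended at the RefSeq end, where Kcna7 falls from 118 to 67.7 CPM per kilobase in WT.

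The members also differed in how much they varied among mice of one genotype. The coefficient of variation in WT was 1.6% for Scn4a, 2.32% for Kcna7, 2.61% for Abcc9, 4.98% for Clcn1, 15.8% for Kcnj11 and 18.9% for Kcnj2, where the median of all genes tested was 7.31%. In M92KO it was 1.77% for Kcnj11, 4.69% for Scn4a, 5.39% for Kcnj2, 9.26% for Abcc9, 10.1% for Kcna7 and 10.3% for Clcn1, where the median was 11.6%. For Kcnj2 and Kcnj11, the members with the widest spread in WT, the library farthest from the others was WT replicate 3, the lowest for Kcnj2 and the highest for Kcnj11.

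For each member the genes with the most similar profile were sought among 8744 genes with a mean of at least 10 CPM, by the root mean square difference of centred log2 CPM over the 6 libraries. The closest were Fam8a1 (0.014) and Jam2 (0.015) for Scn4a, Psph (0.017) and Cenpv (0.019) for Clcn1, and Ppp1r8 (0.016) and Sh3bgrl (0.019) for Abcc9. Kcna7 lay closest to Slc9a2 (0.028) and Arl8b (0.031). The nearest profiles to Kcnj11 were Phka1 (0.054) and Twnk (0.061) and to Kcnj2 Zbtb6 (0.078) and Gssos2 (0.095). The measure is not scaled to the spread of a profile, so a wide spread by itself tends to give larger differences. The larger values of Kcnj11 and Kcnj2 therefore cannot be read as a trait of these members. All these values describe 6 libraries and the genes with levels above that limit.

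Other channel and pump genes were described from a list of 69 subunits, of which 57 passed the filter on low counts. The list was drawn up by gene family, with earlier results of these data known. Where in the cell the products of these genes act was not examined. None of the 57 passed an adjusted p of 0.05 in edgeR. At an unadjusted p under 0.05, 5 were higher and 10 lower in M92KO, 26.3% of those tested beside 12.4% of all genes tested, and the median log2 fold change of the 57 was -0.047. The groups did not overlap for 13 of the 57 (22.8%, beside 18.4% of all genes tested), with M92KO above for 1 and below for 12. DESeq2 called 4 of the 57 at an adjusted p under 0.05, namely Scn4b, Kcna1, Kcna5 and Atp1b1, beside 2.04% of all genes tested. Without M92KO replicate 1, edgeR called Scn2a, Kcnn3 and Atp1b1, each higher in M92KO, beside 2.5% of genes. In that fit 10 of the 57 were higher and 11 lower at an unadjusted p under 0.05, where 18.6% of all genes passed. The edgeR fits that left out any other library called none of the 57.

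Among the 7 sodium channel subunits tested besides Scn4a, 2 were higher and 2 lower at an unadjusted p under 0.05, beside 5.47% and 6.92% of all genes tested. Scn4b, the β4 subunit that associates with the pore, measured 794, 876 and 856 CPM in WT and 640, 679 and 701 CPM in M92KO, so that all M92KO libraries lay below WT. Its log2 fold change was -0.32 (SE 0.075), with an adjusted p of 0.186 in edgeR and 0.00808 in DESeq2. Set against the pore on the scale of CPM per kilobase, the ratio of Scn4b to Scn4a was 1.96 ± 0.0968 in WT and 1.52 ± 0.0965 in M92KO, with no overlap (exact p = 0.1, the smallest possible, adjusted p = 0.267 over 8 ratios). This ratio was chosen after the values had been seen. It restates the lower Scn4b beside a little changed Scn4a and is not a second, separate result.

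The other 3 sodium channel subunits past an unadjusted p of 0.05 were near or below 5 CPM. Scn2b, the β2 subunit, measured 2.75, 3.6 and 3.63 CPM in WT and 1.81, 1.92 and 2.31 CPM in M92KO, a log2 fold change of -0.72 (SE 0.19, adjusted p = 0.214 in edgeR). Scn3b, the β3 subunit, had a log2 fold change of 0.56 (SE 0.23, adjusted p = 0.388), and its M92KO range of 2.30 to 3.91 CPM touched the WT range of 1.67 to 2.31 CPM. Scn2a, a pore-forming subunit best known from neurons, stood at 1.89 to 2.36 CPM in WT and at 1.87, 4.0 and 4.79 CPM in M92KO, with M92KO replicate 1 below the WT libraries. Its log2 fold change was 0.79 (SE 0.32, adjusted p = 0.370 in edgeR), and without that library it was 1.10 with an adjusted p of 0.0315. Without M92KO replicate 3 it was 0.51 (adjusted p = 0.616), and 2 of the 6 fits that left out a library kept an unadjusted p under 0.05.

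None of the 8 genes of the chloride channel list and none of the 5 further inward rectifier and KATP genes that were tested reached an unadjusted p of 0.05. Ano5, a member of the anoctamin family that is mutated in a muscular dystrophy, was the most abundant per length of the chloride channel list. Its log2 fold change was -0.13 (SE 0.084, adjusted p = 0.60 in edgeR). Kcnj12, which encodes the inward rectifier Kir2.2, measured 66.7 to 71.6 CPM in WT and 67.2 to 69.6 CPM in M92KO, a log2 fold change of -0.016 (SE 0.063, adjusted p = 0.946 in edgeR). Its ratio to Kcnj2 was 1.53 ± 0.378 in WT and 1.32 ± 0.0521 in M92KO (exact p = 0.5, adjusted p = 0.7).

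Of the 17 voltage-gated potassium channel subunits tested besides Kcna7, none was higher and 6 were lower in M92KO at an unadjusted p under 0.05, beside 5.47% and 6.92% of all genes tested, and their median log2 fold change was -0.19. Kcna5, a shaker-family channel that smooth muscle also expresses, measured 29.1, 35.7 and 35.1 CPM in WT and 20.3, 17.5 and 25.1 CPM in M92KO. The groups did not overlap, and the log2 fold change of -0.67 (SE 0.14) had an adjusted p of 0.179 in edgeR and 0.00148 in DESeq2. Kcna1 and Kcna2, the shaker channels of myelinated axons, had log2 fold changes of -0.54 (SE 0.14, adjusted p = 0.208) and -0.37 (SE 0.12, adjusted p = 0.287) in edgeR. DESeq2 gave Kcna1 an adjusted p of 0.0421. These 3 close relatives of Kcna7 thus differed from it in the sign of their fold change, a difference that was not tested.

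The KCNQ channels carry slow, sustained potassium currents. Kcnq5 measured 21.9, 22.0 and 22.1 CPM in WT and 13.4, 18.8 and 16.7 CPM in M92KO, a log2 fold change of -0.43 (SE 0.12, adjusted p = 0.231 in edgeR), and Kcnq1, at 0.881 to 1.94 CPM over all libraries, had one of -0.71 (SE 0.25, adjusted p = 0.324). The auxiliary subunit Kcne4 measured 3.68, 10.4 and 13.9 CPM in WT and 2.68, 4.92 and 2.81 CPM in M92KO, with WT replicate 1 inside the M92KO range. Its log2 fold change was -1.43 (SE 0.45, adjusted p = 0.271 in edgeR). Kcnc4, a fast-gating Kv3 channel and the most abundant per length of this group, had a log2 fold change of -0.17 (SE 0.13, adjusted p = 0.638).

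Of the 10 calcium-activated and K2P leak potassium channel genes tested, Kcnma1 was higher in M92KO and Kcnn2 and Kcnk2 were lower, by their unadjusted p (all genes tested, 5.47% higher and 6.92% lower). Kcnma1, the pore of the large-conductance (BK) channel that opens to calcium and depolarisation, measured 35.0, 30.5 and 34.4 CPM in WT and 47.3, 42.2 and 37.3 CPM in M92KO. All M92KO libraries lay above WT, and the log2 fold change of 0.34 (SE 0.099) had an adjusted p of 0.247 in edgeR. Kcnn2, a small-conductance calcium-activated channel, and Kcnk2, a mechanosensitive leak channel, had log2 fold changes of -0.41 (SE 0.14, adjusted p = 0.32) and -0.61 (SE 0.19, adjusted p = 0.273) in edgeR, and both lay below WT in every M92KO library. Kcnn3, the small-conductance channel that appears in denervated muscle, measured 5.05 to 6.94 CPM in WT and 3.72, 9.96 and 10.03 CPM in M92KO. Its log2 fold change was 0.42 (SE 0.33, adjusted p = 0.663 in edgeR), and 0.76 with an adjusted p of 0.0431 without M92KO replicate 1.

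Of the 10 sodium pump genes tested, 2 were higher and none was lower at an unadjusted p under 0.05, where 5.47% and 6.92% of all genes tested were. Atp1b1, a β subunit needed for the pump to reach the membrane, measured 466, 529 and 422 CPM in WT and 504, 819 and 834 CPM in M92KO. M92KO replicate 1 lay within the WT range and the other 2 far above it. The log2 fold change was 0.61 (SE 0.18), with an adjusted p of 0.258 in edgeR and 0.0244 in DESeq2. Without M92KO replicate 1 it was 0.81 with an edgeR adjusted p of 0.00670. Over the 6 edgeR fits that left out a library it ran from 0.49 to 0.81, and 1 of the 6 gave an adjusted p under 0.05. Fxyd5, a small modulator of the pump, measured 8.78 to 11.1 CPM in WT and 10.9 to 13.96 CPM in M92KO, a log2 fold change of 0.35 (SE 0.13, adjusted p = 0.347 in edgeR).

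**Figure D4:**
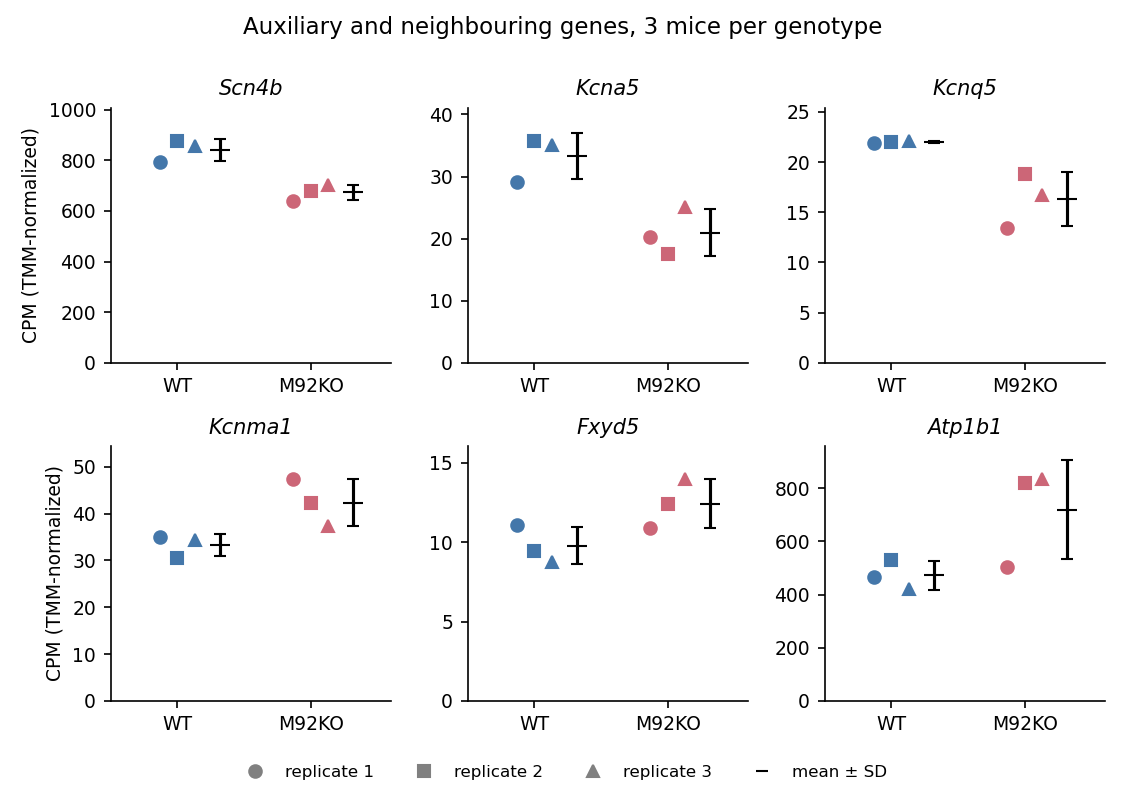
CPM of 6 auxiliary or related genes in each library, with WT in blue, M92KO in red and bars for the mean ± SD of 3 mice. For Scn4b, Kcna5 and Kcnq5 all M92KO libraries lie below WT and for Kcnma1 all lie above, while for Atp1b1 M92KO replicate 1, at 504 CPM, lies within the WT range of 422 to 529 CPM.

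Whole muscle holds nerve, vessel and connective tissue cells that use several of the channels above, so the marker genes of these cells were summed in each library. The fibre markers Acta1, Ckm, Des, Tnnt3, Myh4 and Pvalb summed to 85988 to 99684 CPM in WT and 86042 to 100880 CPM in M92KO. Des, a small part of this sum, stood at 2029 to 2114 CPM in WT and 2384 to 2503 CPM in M92KO. The 4 fibroblast markers summed to 1310 to 1659 CPM in WT and to 871 to 1221 CPM in M92KO, with M92KO replicate 1 the lowest, and did not overlap. The 8 pericyte and smooth muscle markers summed to 1225 to 1287 and 1094 to 1233 CPM, the 4 endothelial markers to 763 to 827 and 669 to 833 CPM, and the 4 nerve and Schwann cell markers to 69.4 to 103 and 70.2 to 75.3 CPM. The pericyte and smooth muscle sum was mostly Rgs5, at 811 to 868 CPM in WT and 697 to 774 CPM in M92KO. Cspg4 went the other way, with a log2 fold change of 0.43 (adjusted p = 0.312 in edgeR). The other markers of that list lay between -0.028 and 0.093. No marker of these lists was at 0 in any library, and none passed an adjusted p of 0.05 in edgeR. The part of these cells in the lower values of Abcc9, Kcna1, Kcna2, Kcna5 and the KCNQ genes was not tested.

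Fibre type and innervation markers were read in the same way. The 5 fast fibre markers summed to 60498 to 64757 CPM in WT and 62450 to 65277 CPM in M92KO, and the 5 slow fibre markers to 104 to 198 and 77.9 to 159.7 CPM. The slow sum was mostly Myl3, at 169, 186 and 79.1 CPM in WT and 67.5, 68.7 and 148 CPM in M92KO. Myh7, Tnnt1, Tnni1 and Tnnc1 lay at 1.04 to 12.7 CPM. Each of them was highest in WT replicate 3, the WT library with the lowest Myl3, so the sum does not stand for these markers. Among the fast markers Myh2, the myosin of fast oxidative fibres, measured 2124, 2239 and 1612 CPM in WT and 2018, 3575 and 4099 CPM in M92KO, with M92KO replicate 1 inside the WT range, as for Atp1b1. Its log2 fold change was 0.70 (adjusted p = 0.314 in edgeR). The other fast markers did not share this rise, with log2 fold changes of -0.19 for Myh1, 0.056 for Myh4, 0.028 for Tnnt3 and 0.081 for Tnni2. The 7 genes that respond to denervation summed to 40.2 to 48.3 CPM in WT and 34.6 to 45.7 CPM in M92KO, and of these Chrng, the fetal acetylcholine receptor subunit, had 0 to 5 counts per library and was not tested. The log2 fold changes of the 6 tested ran from -0.49 for Myog to 0.42 for Kcnn3, with 4 below 0 and 2 above, so this sum does not stand for the single genes. The part of fibre type in the values of Kcna7 and Atp1b1 was not tested.

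The fold changes of the members were small under the other settings examined as well. Over the 14 alternative settings the log2 fold change of Kcna7 ran from 0.19 to 0.33 and that of Abcc9 from -0.18 to -0.050, each with 1 sign throughout, and that of Kcnj2 from 0.0049 to 0.26. Kcna7 kept an unadjusted p under 0.05 in 4 of the 6 fits that left out 1 library and in 6 of the other 8. The exceptions among the latter were the 2 fits with trends in GC content and transcript length removed. In these edgeR fits the log2 fold change of Kcna7 was 0.25 (unadjusted p = 0.0515) and, with the replicate number as a block, 0.24 (unadjusted p = 0.0610), close to the 0.26 without the correction. Scn4a, Clcn1 and Kcnj11 changed sign in at least 1 setting.

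**Figure D5:**
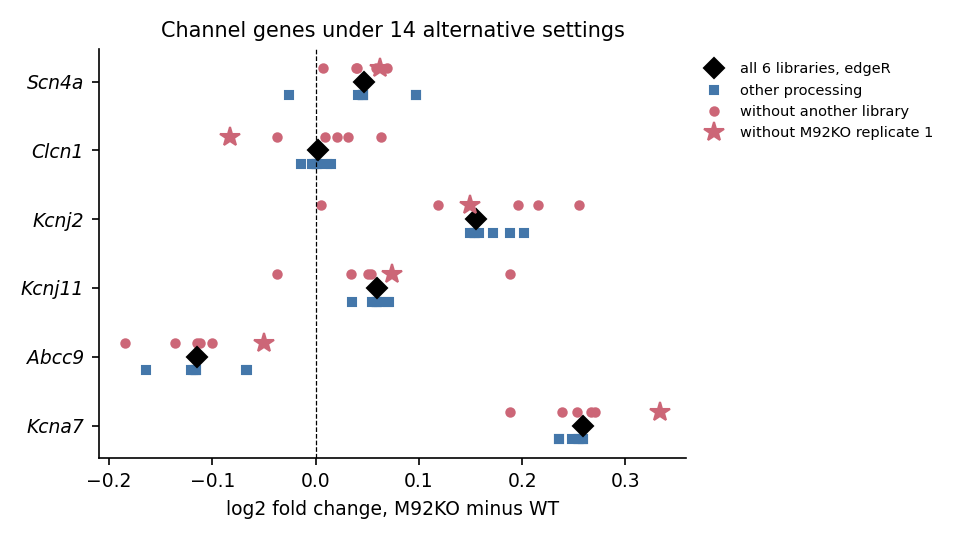
Log2 fold change (M92KO minus WT) of each member under the main edgeR fit and under each of the 14 alternative settings, circles and stars for fits without 1 library and squares for the others. The points of Kcna7 lie between 0.19 and 0.33 and those of Abcc9 between -0.18 and -0.050, whereas those of Scn4a, Clcn1 and Kcnj11 fall on both sides of 0.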

How the data were processed

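mRNA libraries (RNeasy extraction, SMARTer mRNA-seq kit) were made from 6 Gas muscles, 3 WT and 3 M92KO. The authors deposited raw read counts for 34714 gene symbols, and GRCm38 (mm10) is the build in the submitters' processing notes. The aligner, counter, annotation and strand setting are not given in the sources used here.

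Counts were filtered (filterByExpr, minimum count 10, minimum total 15), TMM-scaled and fitted with edgeR 4.0.16 (R 4.3.3, quasi-likelihood test, 2 groups), with Benjamini-Hochberg adjustment over 15788 genes. Single genes were also tested by exact permutation of log2 CPM. DESeq2 1.42.0 and limma 3.58.1 (quantile normalisation and log2 of value plus 1, as in the study, on all symbols) were alternatives. The fits were first tested on simulated data. Lengths came from GENCODE M21, which matched 25731 symbols directly and 481 by Entrez ID.

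The members and lists were chosen with earlier results of these data known. Besides the members, the text names from each group of the list the gene with the highest mean CPM per kilobase and any with an unadjusted p under 0.05, and for each member the 2 genes with the most similar profile. Some genes that this rule selects are not reported here. Kcnj8, Kcnn3, the ratios and Myh2 were added after the values had been seen. CPM floors cover counting error only, and p-values measure the spread between mice. The labels do not tie the replicate numbers of WT and M92KO mice to each other, and same-numbered libraries deviated together only weakly. The main fit therefore did not pair the mice.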

Additional observations from a re-analysis of the deposited data

How the results depend on the processing

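No member was called by edgeR at an adjusted p under 0.05 except Kcna7 without M92KO replicate 1 (0.33), and leaving out each library in turn gave 0 to 1 member called and 0 to 1 under an unadjusted p of 0.05. The limma steps of the study gave 2 members under an unadjusted p of 0.05 (6.59% of all genes in that fit), and removing GC and length trends gave 0 (12.9%), as it did with the replicate block (10.8%). Directions near 0 were not stable. Scn4a turned to -0.026 with the limma steps, Clcn1 to -0.014 with the limma steps and to -0.0037 without a filter, and leaving out a library gave -0.083 to 0.063 for Clcn1, -0.037 to 0.19 for Kcnj11 and 0.19 to 0.33 for Kcna7. Kcnj2 stood at 0.0049 without WT replicate 3. Of the genes of the list named, leaving out a library gave -0.040 to 0.010 for Kcnj12, with the change of sign without WT replicate 3.

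The deviations of same-numbered libraries from their group means had correlations of 0.074, 0.038 and 0.015. Those of differently numbered libraries ran from -0.072 to 0.039. With 3 mice per genotype these values cannot decide whether the mice were paired. With the replicate block the log2 fold change of Clcn1 was -0.0019, 3 genes of the list were higher at an unadjusted p under 0.05 in place of 5, and the count of genes called over the whole table was 2.

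Of the 57 genes of the list, DESeq2 called 4 and leaving out a library gave 0 to 3 in edgeR. Those higher at an unadjusted p under 0.05 numbered 1 with the limma steps and 2 to 10 on leaving out a library, the 10 without M92KO replicate 1. Over all genes tested, 44.1% of those under an unadjusted p of 0.05 were higher in M92KO, beside 51.8% without M92KO replicate 1 and 54.4% with the limma steps. The limma steps called 42 genes at an adjusted p under 0.05, the fit without M92KO replicate 1 called 401, and that without a filter 6. The WT levels in CPM per kilobase were 91.9 (Scn4a), 85.5 (Clcn1), 44.2 (Kcnj11) and 51.8 (Abcc9) with the longest transcript, and 75.0 (Scn4a) and 67.7 (Kcna7) with exons ended at the RefSeq ends, an alternative chosen after seeing the data. The cause of these shifts was not tested, apart from the lengths, which are the alternative itself. The 3 mice per genotype limit the precision, with standard errors of 0.069 to 0.13 on the log2 scale for the members.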
